A study of Mus musculus with 7 samples.

Results

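The genes followed here belong to the machinery that removes poly(A) tails from mRNA, which acts during mouse oocyte maturation. They were taken by symbol and are 10 of the 25912 gene entries listed for each library, and all 10 passed the filter on low levels described below. Btg4, Tob1 and Tob2 encode adaptors of the BTG/TOB family. Cnot1, Cnot2, Cnot3, Cnot6, Cnot6l, Cnot7 and Cnot8 encode subunits of the CCR4-NOT deadenylase. Transcript levels were measured by Smart-seq2 in 7 libraries of 10 mouse oocytes each. The 2 GV libraries hold fully grown oocytes arrested at the germinal vesicle stage, with treatment listed as "NO". The 3 MII libraries with DMSO hold oocytes matured in culture to metaphase II with the solvent DMSO, and the 2 MII libraries with BYBX hold oocytes matured with BYBX, a fluorescent ligand of RNA G-quadruplexes (rG4s, four-stranded folds of G-rich RNA). The oocytes of all groups came from the ovaries of young C57BL/6 females primed with PMSG and carry the genotype "Control". The dose of BYBX for these libraries is not given in the labels, and a library pools oocytes, so the spread between libraries is that between pools.

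CCR4-NOT shortens the poly(A) tail of cytoplasmic mRNAs, which is the first step of decay for most transcripts. CNOT1 is the scaffold to which the other subunits bind. CNOT2 and CNOT3 form a structural module at its C-terminal end. CNOT7 and CNOT8 are alternative exonucleases of the CAF1 type, and CNOT6 and CNOT6L are alternative exonucleases of the CCR4 type that dock through CNOT7 or CNOT8. BTG and TOB proteins bind CNOT7 and CNOT8 and bring them to mRNAs, and BTG4 is the oocyte form needed for clearance of maternal mRNA during maturation. Transcription is silent in this period, so the pool of maternal mRNA is controlled by decay and by the length of poly(A) tails. Tails of stored mRNAs can be lengthened through cytoplasmic polyadenylation elements (CPEs), short U-rich motifs near the polyadenylation hexamer, which are bound by CPEB1.

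The 3′ ends of the transcripts are shown because reverse transcription started from oligo-dT, so that the values depend on the tail as well as on the number of molecules, and these cannot be told apart here. Transcript models are those of GENCODE vM21, whose assembly GRCm38 is the same as mm10, the build of the deposited files. A hexamer (AATAAA or ATTAAA) lay within the last 40 bases of the chosen transcript of 9 members, and no such end was found for Cnot1. In 4 of these 9, Btg4, Cnot3, Cnot7 and Cnot8, a CPE (TTTTAT or TTTTAAT) began at most 100 bases before the hexamer or after it, in the sense strand of the 3′-UTR. Among all tested genes with a hexamer at the end, 23.6% of 7406 had such a CPE. The stretches of the 4 members with a CPE follow, written 5′ to 3′ in the sense of the mRNA, with hexamers and CPEs in capitals.
Btg4 hexamer (chr9:51119542-51119571, plus strand): tgccggtgataaAATAAAatgaattatagg
Btg4 CPE (chr9:51119476-51119505, plus strand): ctttatgtaaaaTTTTATgaacactagtga
Cnot7 (chr8:40493036-40493065, minus strand): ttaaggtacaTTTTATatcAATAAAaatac
Cnot8 (chr11:58118552-58118581, plus strand): tatgtTTTTAATtttgtaaAATAAAgattg
Cnot3 (chr7:3661075-3661104, plus strand): atttatgAATAAAtagTTTTATatgacggc
In Btg4 the CPE shown began 66 bases before the hexamer, and a second one of the longer form began 95 bases before it. In Cnot7 a CPE began 9 bases before the hexamer and another 97 bases before it. The CPE of Cnot8 began 14 bases before the hexamer, and that of Cnot3 began 9 bases after the start of its hexamer, on the far side.

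The ends of 4 members without a CPE in this window are given for comparison.
Cnot6l (chr5:96070340-96070369, minus strand): ttccctgtaggcAATAAAtggccattttgc
Cnot6 (chr11:49671509-49671538, minus strand): tcatagccaaccAATAAAttcaatatctgt
Cnot2 (chr10:116485171-116485200, minus strand): tcttctctttgtAATAAAgtagaaaagctc
Tob2 (chr15:81848276-81848305, minus strand): ttttaagtttgtATTAAAagcatgatatat
Tob1 ends with a pair of ATTAAA hexamers. It was also the only member whose chosen transcript held an rG4 motif, defined as 4 runs of at least 3 G with gaps of 1 to 7 bases on the sense strand. The motif lies in the 5′-UTR and is shown because BYBX is an rG4 ligand, with the runs of G in capitals.
Tob1 rG4 motif (chr11:94211482-94211506, plus strand): GGGGacgcaGGGccGGGccgccGGG
A motif was found in the 5′-UTR of 7.39% of the 8745 tested genes with a coding transcript, in the coding sequence of 3.12%, in the 3′-UTR of 8.75%, and anywhere in 17.7%. A match to these letters is a description and shows neither a fold nor a bound site, and lack of a match does not show that no rG4 forms. The paper reports rG4 signals in 3′-UTRs that rose with BYBX for transcripts it describes there, Btg4 among them. The Btg4 transcript chosen here held no motif. More than 1 annotated 3′ end exists for several members, and the end used in oocytes was not tested.

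Levels are FPKM, fragment counts divided by gene length and library size, which the authors scaled to a spike-in and between batches. FPKM is per length, so different genes were ranked by it. The values also depend on the tail, so an order by FPKM need not be the order by number of molecules. The number of reads behind a value is unknown. The summed FPKM of a library was 402113 to 489569 in GV, 109732 to 127254 in MII with DMSO and 201482 to 246710 in MII with BYBX, and every difference between groups depends on how the libraries were scaled. All 12 oocyte markers were above 0 in at least 1 library of every group. All 12 reached 1 FPKM in GV and in MII with BYBX, and 11 did in MII with DMSO, where Figla did not. Their summed level was 11773 to 14291 FPKM in GV, 2527 to 3260 in MII with DMSO and 6012 to 7187 in MII with BYBX. Markers of granulosa and cumulus cells moved in the same order but were low. Their sums over 10 genes were 6.33 to 10.4 FPKM in GV, 1.55 to 2.0 in MII with DMSO and 3.21 to 3.34 in MII with BYBX. Cyp19a1 reached 1 FPKM in every group and Nr5a2 in GV and in MII with BYBX, and Ptx3 was listed at 0 in every library. Sums over 6 erythrocyte markers reached at most 1.14 FPKM.

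Btg4 had by far the highest FPKM of the members in every group. In GV oocytes the order by mean FPKM was Btg4 (2076), Cnot7 (132), Cnot8 (123), Cnot2 (49.1), Tob2 (44.5), Cnot6l (40.9), Cnot3 (11.7), Tob1 (10.6), Cnot1 (7.51) and Cnot6 (2.70). The libraries of Cnot7 and Cnot8 overlapped, as did those of Cnot2 and Tob2, of Tob2 and Cnot6l, and of Cnot3 and Tob1. In MII with DMSO the order was Btg4, Cnot7, Cnot8, Cnot6l, Tob2, Cnot2, Cnot3, Cnot6, Cnot1 and Tob1, and only Cnot7 with Cnot8 and Tob2 with Cnot2 overlapped among neighbours. In MII with BYBX it was Btg4, Cnot8, Cnot7, Cnot6l, Tob2, Cnot2, Cnot3, Cnot1, Tob1 and Cnot6. There the neighbours that overlapped were Cnot8 with Cnot7, Cnot6l with Tob2, Tob2 with Cnot2, Cnot1 with Tob1, and Tob1 with Cnot6. From GV to MII with DMSO, Cnot6l and Cnot6 thus moved up in the order, Cnot2 and Tob1 moved down, and the others kept their places.

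**Figure D1:**
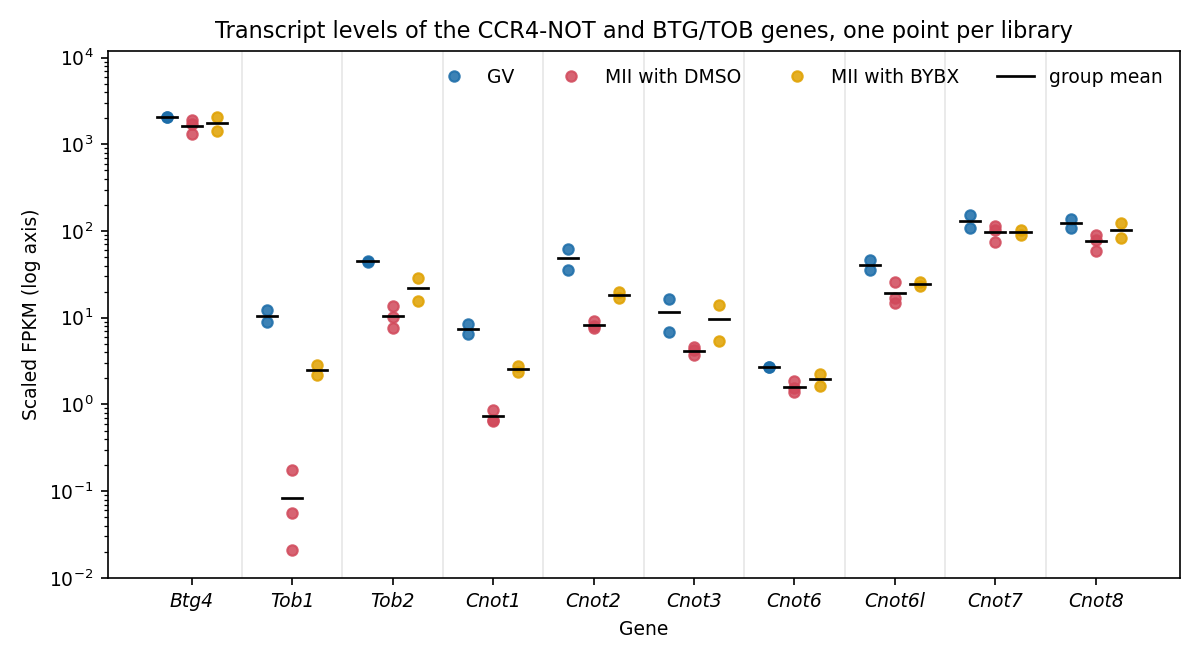
Scaled FPKM (log axis) of the 10 genes in each of the 7 libraries, with GV in blue, MII with DMSO in red and MII with BYBX in yellow, and a black line at each group mean. Btg4 lies between 1317 and 2090 FPKM in every library, whereas Tob1 falls from 10.6 FPKM in GV to 0.0832 in MII with DMSO.

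Groups were compared with limma on log2(FPKM + 1), over the 9202 entries that averaged 1 FPKM or more across the 3 group means. All 7 libraries entered 1 model, and p-values were adjusted by the Benjamini-Hochberg method over all tested entries. All differences below are in log2(FPKM + 1), a scale that compresses changes of genes near or below 1 FPKM. In MII with DMSO against GV, 8 of the 10 members were called lower at an adjusted p under 0.05, where 88.3% of all tested entries were. No member was called higher, against 0.272% of all entries, and none was higher at an unadjusted p under 0.05. The libraries of the 2 groups did not overlap for 9 members, all of them lower in MII, and for 92.5% of all entries. The members' share called is therefore near the background. The median difference over the members was -1.14 and that over all tested entries -1.83.

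The deposited scale enters each of these directions. When all libraries were set to an equal FPKM total, the median difference of all entries moved to -0.56, 3 members were called lower (49.5% of all entries) and 5 higher (23.3%). With libraries centred on the median of the tested entries it moved to 0.47, 1 member was called lower (26.7%) and 6 higher (48.8%). The centring subtracted a constant per library from log2(FPKM + 1), which is not a factor on FPKM for genes near or below 1 FPKM. In MII with DMSO these include Cnot1, Cnot6 and Tob1, so their centred values do not show what a factor would give. Tob1 was called lower under all 3 scalings. Cnot2 had -0.61 at the same total (limma adjusted p = 0.047) and -0.08 after median centring (adjusted p = 0.74), Cnot1 had -1.04 (adjusted p = 9.9e-04) and 0.01 (adjusted p = 0.96), and Tob2 had -0.22 (adjusted p = 0.45) and 0.29 (adjusted p = 0.34). The differences of Btg4, Cnot3, Cnot6, Cnot6l, Cnot7 and Cnot8 were positive under both rescalings. For this reason each difference is also given relative to the median of all tested entries.

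Btg4 (chromosome 9, 51060901 to 51119875, plus strand) encodes the oocyte adaptor that brings CNOT7 and CNOT8 to mRNAs. It had 2090 and 2062 FPKM in the GV libraries, 1317, 1720 and 1899 in MII with DMSO, and 2054 and 1443 in MII with BYBX. The GV libraries lay above all others, by little in the case of the first BYBX-treated library, and the MII groups overlapped. MII with DMSO held 79.2% ± 14.3 (SD, n = 3) of the GV mean, and the median entry held 16.2%. The difference of -0.35 (95% confidence interval -0.87 to 0.16, limma adjusted p = 0.17) did not pass the threshold, and it was 1.48 above the median difference, at place 586 from the top of 9202 entries. Among all entries Btg4 stood at places 16 and 11 by level in the GV libraries, at place 6 in each MII library with DMSO, and at places 7 and 8 with BYBX. It took 0.427% and 0.513% of the summed FPKM in GV, 1.20% to 1.49% in MII with DMSO, and 0.833% and 0.716% in MII with BYBX. These shares do not depend on a factor per library, and the 3 groups did not overlap in them.

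Tob1 and Tob2 encode the longer adaptors of the family, which also bind the cytoplasmic poly(A)-binding protein. Tob1 (chromosome 11, 94211454 to 94215495, plus strand) had 12.3 and 8.90 FPKM in GV, 0.0209, 0.0555 and 0.173 in MII with DMSO, and 2.18 and 2.84 in MII with BYBX. No libraries of different groups overlapped, and those with DMSO were near 0. Its fall of -3.41 (standard error 0.21, limma adjusted p = 3.5e-09) was the deepest among the members, at -1.58 relative to the median difference, and remained at -2.54 and -1.11 under the same total and after median centring. Tob2 (chromosome 15, 81848272 to 81858796, minus strand) had 43.9 and 45.2 FPKM in GV, 7.66, 10.3 and 13.7 in MII with DMSO, and 28.7 and 15.6 in MII with BYBX. The 3 groups did not overlap here either. Tob2 fell by 2.01 (standard error 0.31, limma adjusted p = 2.7e-05), close to the median entry, although the difference was 0.29 after median centring. Of the summed FPKM of the 3 adaptor genes, Btg4 made up 97.4% in both GV libraries, 99.3% to 99.4% in MII with DMSO, and 98.5% and 98.7% in MII with BYBX. The groups did not overlap in this share, which was a description with no test.

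Cnot1 (chromosome 8, 95719451 to 95807464, minus strand), the scaffold gene, had low levels throughout. It had 8.56 and 6.46 FPKM in GV, 0.870, 0.647 and 0.663 in MII with DMSO, and 2.75 and 2.37 in MII with BYBX. All 3 MII libraries with DMSO were below 1 FPKM and the groups did not overlap. MII with DMSO held 9.67% ± 1.65 (SD, n = 3) of the GV mean. The fall was -2.29 (standard error 0.21, limma adjusted p = 1.4e-07), or -0.46 relative to the median difference, and the value was 0.01 after median centring. Cnot2 (chromosome 10, 116485161 to 116581511, minus strand), of the structural module, had 62.6 and 35.7 FPKM in GV, 9.09, 7.97 and 7.68 in MII with DMSO, and 17.0 and 19.7 in MII with BYBX. Its groups did not overlap, and it fell by 2.39 (standard error 0.27, limma adjusted p = 1.6e-06), or -0.55 relative to the median difference.

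Cnot3 (chromosome 7, 3645268 to 3661109, plus strand) encodes the partner of CNOT2. It had 16.4 and 6.92 FPKM in GV, 3.75, 4.19 and 4.58 in MII with DMSO, and 14.0 and 5.39 in MII with BYBX. The first library of GV and the first of MII with BYBX stood apart from the second of their group, and both GV libraries lay above all 3 with DMSO. The difference was -1.19 (standard error 0.37, limma adjusted p = 0.0083), or 0.65 above the median, and positive under both rescalings (0.45 and 1.12). Without the first GV library it was -0.62 and no longer called.

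Cnot7 (chromosome 8, 40492540 to 40515847, minus strand) and Cnot8 (chromosome 11, 58104153 to 58118594, plus strand) encode the nucleases that BTG4 binds. Cnot7 had 154 and 109 FPKM in GV, 113, 104 and 74.3 in MII with DMSO, and 89.7 and 104 in MII with BYBX. The lower GV library lay below the highest library with DMSO, so these groups overlapped, the only such case among the 10 genes. MII with DMSO held 73.8% ± 15.3 (SD, n = 3) of the GV mean of Cnot7. Its difference of -0.44 (95% confidence interval -1.03 to 0.15, limma adjusted p = 0.14) did not pass the threshold, was 1.40 above the median, and was positive under both rescalings (1.43 and 1.87). Cnot8 had 137 and 109 FPKM in GV, 59.4, 89.5 and 79.8 in MII with DMSO, and 123 and 83.2 in MII with BYBX. Both GV libraries lay above all 3 with DMSO. Its difference of -0.70 (standard error 0.28, limma adjusted p = 0.031) was called lower, was 1.14 above the median, and was positive under both rescalings (1.17 and 1.61). Without the first GV library or without the first MII library with DMSO it was -0.53 and not called.

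Cnot7 made up 52.8% and 50.1% of the summed FPKM of Cnot7 and Cnot8 in GV, 65.5%, 53.8% and 48.2% in MII with DMSO, and 42.2% and 55.6% in MII with BYBX. The ranges overlapped, and the 2 nuclease genes were at similar levels in each group. Btg4 exceeded their sum in every library, by 7.17 and 9.45 times in GV, 7.66 to 12.3 times in MII with DMSO, and 9.67 and 7.70 times in MII with BYBX, again with overlap.

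Cnot6l (chromosome 5, 96070333 to 96164171, minus strand) was the main gene of the other nuclease type. It had 35.4 and 46.5 FPKM in GV, 14.6, 25.6 and 17.1 in MII with DMSO, and 26.1 and 23.5 in MII with BYBX. GV lay above all MII libraries, and the MII groups overlapped. The difference of -1.09 (standard error 0.28, limma adjusted p = 0.0024) was called lower and 0.74 above the median, and was positive under both rescalings (0.73 and 1.21). Cnot6 (chromosome 11, 49671503 to 49712723, minus strand) had 2.73 and 2.67 FPKM in GV, 1.53, 1.87 and 1.38 in MII with DMSO, and 2.25 and 1.65 in MII with BYBX. Its GV libraries lay above all others. The difference of -0.52 (standard error 0.20, limma adjusted p = 0.026) was called and lay 1.32 above the median, but was positive under both rescalings (0.76 and 1.79). The call was lost without either GV library (-0.51 and -0.53), without the first or the last MII library with DMSO (-0.50 and -0.46), and in the fit with a replicate block (-0.46). The block fit gives the same difference as leaving out that last library, so it is no separate check. Cnot6l made up 90.5% to 94.6% of the summed FPKM of Cnot6 and Cnot6l over the 7 libraries, with overlap between all groups.

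**Figure D2:**
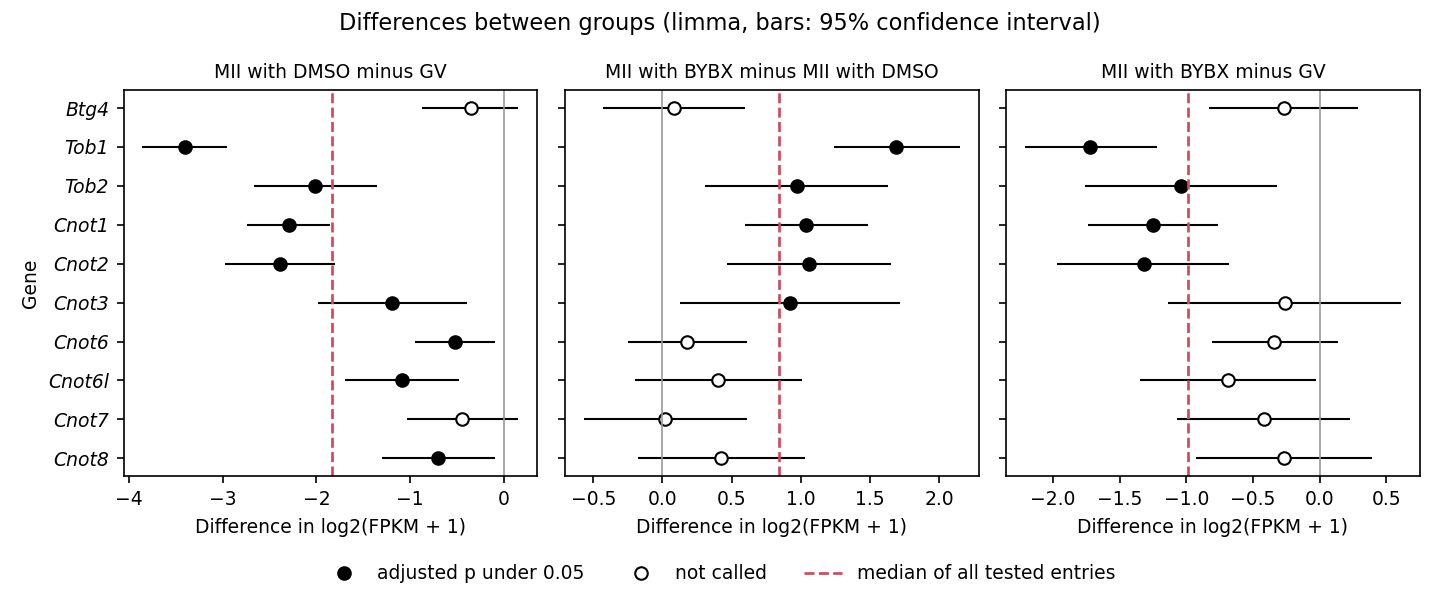
Differences in log2(FPKM + 1) of the 10 genes for the 3 comparisons, with 95% confidence intervals, filled points for an adjusted p under 0.05 and a dashed line at the median of all 9202 tested entries. In MII with DMSO minus GV, Btg4, Cnot3, Cnot6, Cnot6l, Cnot7 and Cnot8 lie to the right of the median (-1.83), and Tob1, Tob2, Cnot1 and Cnot2 to the left. The sign of those 6 genes turns in this comparison under both other scalings, and that of Tob2 and Cnot1 after median centring. Cnot1 was below 1 FPKM in MII with DMSO, where centring on log2(FPKM + 1) does not act as a factor on FPKM.

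Ratios between members within a library do not depend on the scaling either. The ratio of Cnot7 plus Cnot8 to Cnot1, chosen after the values had been seen and so given with no test, was 34.0 and 33.8 in the GV libraries, 198, 300 and 233 in MII with DMSO, and 77.2 and 79.2 in MII with BYBX. The 3 groups did not overlap, and the BYBX-treated libraries lay between GV and MII with DMSO. For Cnot6 plus Cnot6l to Cnot1 the ratio was 4.45 and 7.61 in GV, 18.5, 42.4 and 27.8 in MII with DMSO, and 10.3 and 10.7 in MII with BYBX, in the same order and also without overlap. Transcripts of the nucleases were thus in larger excess over that of the scaffold in MII than in GV, on the FPKM scale and in polyadenylated RNA. This is not particular to the scaffold. In MII with DMSO the median entry held 16.2% of its GV mean and Cnot1 9.67%. The nuclease genes held 46.6% (Cnot6l) to 73.8% (Cnot7), so they rose against the median entry as well. Both ratios rest on Cnot1, which had 0.870, 0.647 and 0.663 FPKM in MII with DMSO, from an unknown number of reads.

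**Figure D3:**
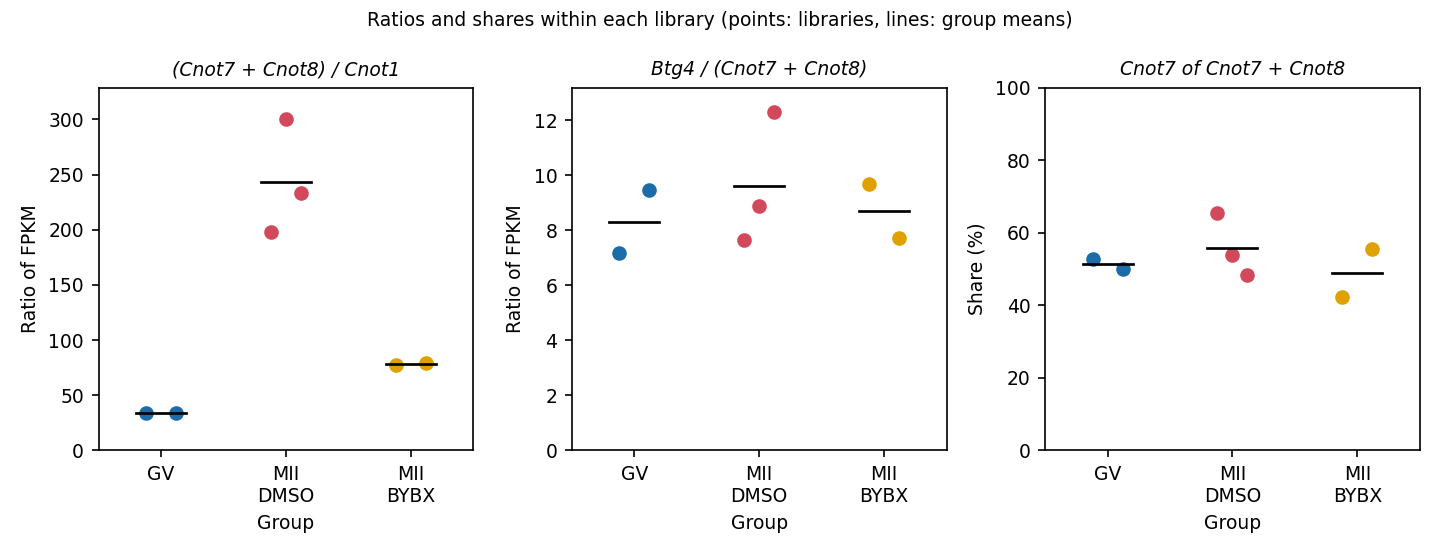
Ratios of FPKM and the share of Cnot7 (%) within each library, points for libraries and lines for group means. The ratio of Cnot7 plus Cnot8 to Cnot1 has a mean of 33.9 in GV, 243 in MII with DMSO and 78.2 in MII with BYBX, whereas the ratio of Btg4 to Cnot7 plus Cnot8 and the share of Cnot7, in the other panels, overlap between groups.

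The CPEs shown above were set beside these differences. The 4 members with a CPE had differences from GV to MII with DMSO of -0.35 (Btg4), -0.44 (Cnot7), -0.70 (Cnot8) and -1.19 (Cnot3). The 5 members with a hexamer and no CPE in the window spread more widely, with -0.52 (Cnot6), -1.09 (Cnot6l), -2.01 (Tob2), -2.39 (Cnot2) and -3.41 (Tob1). All 4 members with a CPE lay above the median of all tested entries, and so did Cnot6 and Cnot6l without one. Over all tested genes with a hexamer at the end, the median difference was -1.15 (quartiles -1.99 and -0.63) for the 1749 genes with a CPE and -1.94 (quartiles -3.01 and -1.10) for the 5657 genes without. These are descriptions, with no test, and the part of tail length in them was not tested.

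**Figure D4:**
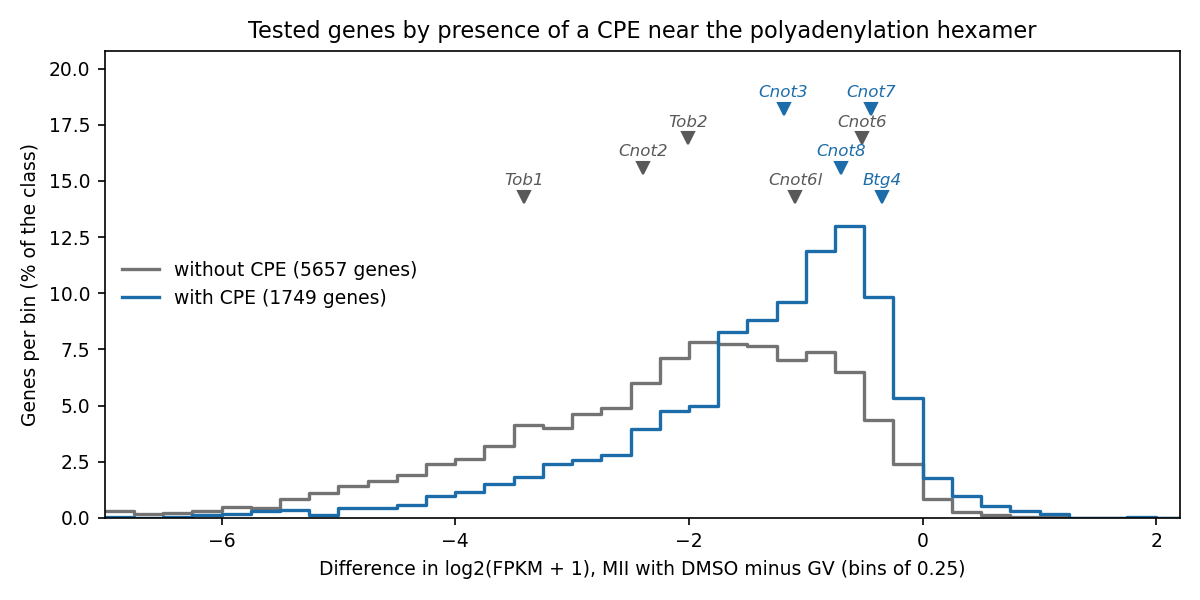
Distribution of the difference in log2(FPKM + 1), MII with DMSO minus GV, in percent of genes per bin of 0.25, for tested genes with (blue) and without (grey) a CPE near the hexamer; values below -7 are in the first bin. Triangles mark the 9 members with a hexamer at the end at their differences (their height carries no value), and the 4 with a CPE lie at -1.19 or above, a position that rests on the deposited scale.

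In MII with BYBX against MII with DMSO, 5 of the 10 members were called higher, where 65.2% of all tested entries were, and none was called lower, where 0.0326% of all entries were. At an unadjusted p under 0.05 no member was lower either. The 5 were Tob1, Tob2, Cnot1, Cnot2 and Cnot3, and for the same 5 both BYBX-treated libraries lay above all 3 with DMSO, against 79.0% of all entries. The 5 not called were Btg4 and the 4 nuclease genes. The median difference was 0.67 over the members and 0.84 over all tested entries. At the same total FPKM 2 members were called higher (39.9% of all entries) and 2 lower (8.22%), with a median of 0.34 over all entries. After median centring, with a median of -0.44, none was called higher by limma (18.4%), 1 at an unadjusted p under 0.05, and 5 were called lower (43.9%). This comparison shares the libraries with DMSO with the one against GV, so the values are set side by side and not related to each other.

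Tob1 showed the largest difference with BYBX, 1.69 (standard error 0.21, limma adjusted p = 1.2e-05), 0.86 above the median, and it was 1.69 and 0.41 under the other scalings. Tob1 was far below 1 FPKM with DMSO, where the median centring does not act as a factor on FPKM. It reached 23.7% ± 4.43 (SD, n = 2) of its GV mean with BYBX against 0.784% ± 0.752 (SD, n = 3) with DMSO. Tob1 is the member with the rG4 motif in its 5′-UTR, but whether the motif bears on its level was not tested. Cnot1 was higher by 1.04 (standard error 0.21, limma adjusted p = 6.3e-04) and Cnot2 by 1.06 (standard error 0.27, limma adjusted p = 0.004), and both differences were negative after median centring (-0.23 and -0.21). With BYBX they held 34.1% ± 3.64 and 37.3% ± 3.88 (SD, n = 2) of their GV means, and 9.67% ± 1.65 and 16.8% ± 1.52 (SD, n = 3) with DMSO.

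Tob2 was higher by 0.97 (standard error 0.31, limma adjusted p = 0.013), and Cnot3 by 0.92 (standard error 0.37, limma adjusted p = 0.042), with -0.31 and -0.36 after median centring. Both rest on the first BYBX-treated library, which was the higher of the pair. Without it the differences were 0.55 for Tob2 and 0.31 for Cnot3, and neither was called. The call of Cnot3 was also lost without the second or the last MII library with DMSO (0.93 and 0.98).

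The nuclease genes and Btg4 did not pass the test between the MII groups, which does not show that they were alike. These are RNA values, and the paper reports weaker BTG4 and CNOT7 protein with BYBX by western blot. The difference of Btg4 was 0.08 (95% confidence interval -0.43 to 0.60, limma adjusted p = 0.76) and that of Cnot7 was 0.02 (-0.57 to 0.61, adjusted p = 0.96). Cnot6 had 0.18 (-0.25 to 0.61, limma adjusted p = 0.42), Cnot6l 0.40 (-0.20 to 1.01, adjusted p = 0.22) and Cnot8 0.42 (-0.18 to 1.03, adjusted p = 0.19). Each of these 5 differences lay below the median of all tested entries, at -0.75 relative to it for Btg4, -0.65 for Cnot6, -0.44 for Cnot6l, -0.82 for Cnot7 and -0.41 for Cnot8, and each was negative under both rescalings. Btg4 held 84.2% ± 20.8 and Cnot7 73.7% ± 7.76 (SD, n = 2) of the GV mean with BYBX. The signs of the differences of Btg4 and Cnot7 also turned with single libraries, for Btg4 to -0.07 without the first MII library with DMSO and to -0.17 without the first with BYBX, and for Cnot7 to -0.16 without the last with DMSO and to -0.09 without the second with BYBX.

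Against GV, 4 of the 10 members were called lower in MII with BYBX (69.2% of all tested entries), and none was called higher (0.315%). None was higher at an unadjusted p under 0.05 either. They were Tob1 (-1.72), Cnot2 (-1.32), Cnot1 (-1.25) and Tob2 (-1.04), with limma adjusted p-values of 7.3e-05, 0.0017, 3.8e-04 and 0.014, and under the other scalings only Tob1 was still called (-0.85 and -0.69, limma adjusted p = 0.037 and 0.029). Cnot1 had -0.42 and -0.22, Cnot2 -0.36 and -0.30, and Tob2 -0.08 and -0.01. The libraries did not overlap for 8 members, all lower with BYBX, against 82.3% of all entries; Cnot3 and Cnot8 were the exceptions. The call of Tob2 was lost without either GV library (-1.06 and -1.02) and without the second BYBX-treated library (-0.62). Btg4 (-0.27), Cnot3 (-0.26), Cnot6 (-0.34), Cnot6l (-0.69), Cnot7 (-0.42) and Cnot8 (-0.27) were not called, and all 6 were positive under both rescalings. Cnot6l was called only without the first MII library with DMSO, at -0.69 as before, or without the intensity trend. The sign of Cnot3 turned without the first GV library (0.30) or without the second BYBX-treated library (0.35). The median difference over all entries was -0.99, and over the members -0.55. At the same total FPKM 1 member was called lower (13.3% of all entries) and 2 higher (5.30%), and after median centring 1 lower (13.6%) and 3 higher (15.2%).

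Further subunits of the complex, other BTG members, other deadenylases and relatives of the CCR4-type enzymes were described as a list of 15 genes. The list gave 16 entries, 14 of them tested. In MII with DMSO against GV 10 were called lower and the other 4 were not called, where 88.3% of all tested entries were lower, with a median difference of -1.42. Cnot9 and Cnot10, subunits that bind CNOT1, fell most. Cnot9 had 64.9 and 49.3 FPKM in GV, 1.39, 2.04 and 1.09 in MII with DMSO, and 12.4 and 12.7 in MII with BYBX. Cnot10 had 23.2 and 15.7 FPKM in GV, 0.254 to 0.479 in MII with DMSO, and 3.96 and 3.87 in MII with BYBX. These falls were -4.54 and -3.92 (limma adjusted p = 1.4e-09 and 2.0e-09), and both genes were called lower under both rescalings as well. Of the Cnot genes that encode no nuclease, Cnot1, Cnot2, Cnot9 and Cnot10 were below the median difference on the deposited scale. Cnot4 (-0.20 relative to it) and Cnot11 (-0.26) were below it too. Cnot3 (0.65) was above it, as was Tnks1bp1 (1.35). Cnot11, the partner of CNOT10, had 61.2 and 81.3 FPKM in GV, a mean of 16.4 ± 5.27 (SD, n = 3) with DMSO, and 56.8 and 27.1 with BYBX.

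Genes of deadenylases and of relatives of the CCR4-type enzymes outside the complex were named here after their values had been seen. From GV to MII with DMSO, Parn and Pde12 were below the median difference, at -2.44 and -2.18. Pan2 (-0.49), Pan3 (-0.70), Angel1 (-0.81), Angel2 and Noct were above it, with no test of the difference between them. Angel2, a relative of the CCR4-type enzymes, had 124 and 75.6 FPKM in GV, 86.5, 81.6 and 70.8 in MII with DMSO, and 93.5 and 85.3 in MII with BYBX, with overlap between all groups. Its difference from GV to MII with DMSO was -0.28 (95% confidence interval -0.86 to 0.30, limma adjusted p = 0.33). Noct, of the same family, had 110 and 89.0 FPKM in GV, 49.7, 77.6 and 56.1 with DMSO, and 109 and 75.4 with BYBX, and was called lower in MII with DMSO (-0.71, limma adjusted p = 0.029), although the difference was 1.15 and 1.59 under the other scalings. Btg1, a somatic family member, was near 1 FPKM in all libraries (-0.35, limma adjusted p = 0.065). Btg2 had means of 24.2 FPKM in GV, 3.03 in MII with DMSO and 8.02 in MII with BYBX. It was called lower in MII with DMSO against GV (-2.65, limma adjusted p = 1.5e-06), with -1.02 and -0.34 under the other scalings. Both entries named Btg3 were under the filter. Between the MII groups 7 of the 14 were called higher and 7 were not called (median 0.77), against 65.2% of all entries called higher. With BYBX against GV 6 were called lower and 8 were not called (median -0.66), against 69.2% of all entries called lower.

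RNA-binding proteins that recruit CCR4-NOT were a list of 18 genes, 13 of them tested. Nanos3, Rc3h2, Samd4, Zfp36l1 and Zfp36l2 were under the filter. In MII with DMSO against GV 9 were called lower, 1 higher, and 3 were not called (median -0.89), against 88.3% lower and 0.272% higher over all entries. Pabpn1l, an oocyte poly(A)-binding protein that works with BTG4, fell most among them (-3.15, limma adjusted p = 2.0e-07). It had 191 and 154 FPKM in GV, 14.7, 17.9 and 23.8 with DMSO, and 130 and 79.4 with BYBX, with no overlap between groups. Ythdf2, a reader of m6A that binds CNOT1, had 64.4 and 40.9 FPKM in GV, 8.81, 6.27 and 7.87 with DMSO, and 16.8 and 23.4 with BYBX (-2.61 from GV to MII with DMSO, limma adjusted p = 8.1e-07). Both lay below the median difference, unlike Btg4, with -1.31 and -0.84 for Pabpn1l and -0.83 and -0.30 for Ythdf2 under the other scalings, the last not called.

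Bicc1, an RNA-binding protein whose fly relative recruits CCR4-NOT, was the member of that list called higher in MII. It had 3.04 and 1.58 FPKM in GV, 6.55, 5.58 and 5.27 in MII with DMSO, and 8.12 and 5.01 in MII with BYBX. Both MII groups lay above GV, with differences of 1.07 (standard error 0.27, limma adjusted p = 0.0019) with DMSO and 1.20 (standard error 0.29, adjusted p = 0.0027) with BYBX, at places 13 and 14 from the top of the tested entries, and both differences were larger under both rescalings. Zfp36 had the next difference of the list, -0.36 (limma adjusted p = 0.19), at 1.32 to 3.63 FPKM. Between the MII groups 3 of the 13 were called higher and 10 were not called (median 0.32), against 65.2% of all entries called higher. With BYBX against GV 6 were lower, 1 higher and 6 not called (median -0.75), against 69.2% lower and 0.315% higher over all entries.

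The entries whose pattern over the 7 libraries was most like that of a member were looked for among 3784 entries that are no members and averaged 10 FPKM or more over the group means. Likeness was the root mean square difference of log2(FPKM + 1), each gene centred on its own mean. Among the nearest to Btg4 were Atp2b1 (0.0647) and Ssbp3 (0.0684), and nearest to Cnot7 were Armcx5 (0.0453), Ppip5k2 (0.0701) and Lrrc40 (0.0847). For Cnot6l they were Dipk2a (0.0975), Ube3a (0.155) and Ugcg (0.158). For Cnot1 they were Orc5 (0.0621), Cd164l2 (0.0909) and Zfp207 (0.0932), and Orc5 had means of 428, 91.6 and 174 FPKM in GV, MII with DMSO and MII with BYBX. These entries were picked as the closest, so the distances describe them and have no test.

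Some members overlap other annotated genes, and these libraries keep no strand, so reads in shared stretches cannot be assigned. Btg4 overlaps Layn and 4833427G06Rik on the opposite strand, Cnot7 overlaps Zdhhc2 and Vps37a, and Cnot3 overlaps Leng1. Tob2, Cnot1, Cnot2 and Cnot6 overlap antisense, small RNA, unclassified or pseudogene annotations.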

How the data were processed

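Smart-seq2 libraries of GV oocytes (2), MII oocytes with DMSO (3) and MII oocytes with BYBX (2) were grouped by their labels. The authors trimmed reads with Trim Galore 0.6.7, aligned them to mm10 with HISAT2 2.2.1, computed FPKM with Cufflinks 2.2.1 on UCSC gene models, scaled the FPKM by ERCC spike-in RNA and between batches by GV samples, and deposited 1 FPKM value per gene and library. The factors are not stated and no ERCC entries are listed, so the scaling could not be repeated. Depth is unknown, so no counting interval is given. Of 25912 entries, 4 with a missing value were left out.

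Levels were analysed as log2(FPKM + 1) with limma 3.58.1 in R 4.3.3 (intensity trend, 4 residual degrees of freedom) on 9202 entries, after a test on simulated data. The labels do not say whether libraries came from separate animals, so p-values measure the spread between these libraries only. The genes were followed by symbol. Of the 2 further lists, those with a mean of at least 50 FPKM in any group and the 2 highest and 2 lowest differences of MII with DMSO minus GV were named, together with list genes under the filter. Of the entries nearest in pattern to a member, 1 is not reported here. Members and lists were chosen with earlier results of these data known. Transcript ends were preferred that carry a hexamer, then by APPRIS rank and length. Alternatives tried were filters at 5 FPKM or none, a pseudocount of 0.1, other scalings, fits of only the 2 groups compared, a replicate block, no intensity trend and leaving out each library. Python 3.11.15, numpy 2.4.6, pandas 2.3.3 and matplotlib 3.10.9 were used.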

Additional observations from a re-analysis of the deposited data

How the results depend on the processing

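From GV to MII with DMSO, the 8 members called lower were 5 with the filter at 5 FPKM, which leaves out Tob1, Cnot1 and Cnot6, 3 with equal totals and 1 with median centring, and those called higher were 5 and 6 under these scalings. Between the MII groups, the 5 called higher were 3 without a filter, 3 at 5 FPKM, 2 at the same total and 0 after median centring, and those lower were 2 and 5 under these scalings. With BYBX against GV, the 4 called lower were 2 at 5 FPKM, 1 at the same total and 1 after median centring, and those higher were 2 and 3. Leaving out single libraries gave 5 to 8 lower, 3 to 5 higher and 3 to 5 lower in the 3 comparisons, with 5 without the first GV library and 3 without the first BYBX-treated library. The cause of these changes was not tested. The stricter filter tests fewer members, and the other scalings moved the median difference of all tested entries. From GV to MII with DMSO this median went from -1.83 to -0.56 with equal totals and to 0.47 with median centring.

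With equal totals and with median centring, in this order, the members' median difference was 0.59 and 1.17 from GV to MII with DMSO, -0.15 and -0.61 from DMSO to BYBX, and 0.30 and 0.47 for MII with BYBX minus GV. For MII with DMSO minus GV the differences were 1.53 and 1.95 for Btg4, 0.45 and 1.12 for Cnot3, 0.76 and 1.79 for Cnot6, 0.73 and 1.21 for Cnot6l, 1.43 and 1.87 for Cnot7, and 1.17 and 1.61 for Cnot8, and after median centring 0.29 for Tob2 and 0.01 for Cnot1. Between the MII groups they were -0.81 and -1.20 for Btg4, -0.44 and -1.10 for Cnot6, -0.46 and -0.88 for Cnot6l, -0.87 and -1.26 for Cnot7, and -0.46 and -0.86 for Cnot8, and after median centring -0.31 for Tob2, -0.23 for Cnot1, -0.21 for Cnot2 and -0.36 for Cnot3. For MII with BYBX minus GV they were 0.72 and 0.76 for Btg4, 0.61 and 0.76 for Cnot3, 0.32 and 0.69 for Cnot6, 0.27 and 0.34 for Cnot6l, 0.56 and 0.61 for Cnot7, and 0.71 and 0.75 for Cnot8. The members' median share of the GV level, 41.2% with DMSO and 66.4% with BYBX, was 152% and 130% at the same total and 298% and 145% at the same median FPKM.

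With libraries left out in turn, that share was 37.2% to 50.3% with DMSO and 51.9% to 66.3% with BYBX. Signs turned within the ranges of -0.17 to 0.34 for Btg4 and -0.16 to 0.13 for Cnot7 between the MII groups, and of -0.88 to 0.35 for Cnot3 and -0.55 to 0.00 for Cnot8 with BYBX against GV.

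With the replicate number as a block, 6 members were called lower from GV to MII with DMSO, 5 were called higher with BYBX against DMSO, and 4 were called lower against GV with BYBX. Cnot6 and Cnot8 lost their calls, and the difference of Cnot7 between the MII groups was -0.16. The last MII library with DMSO has no same-numbered library in the other groups, so the block leaves it no weight. The members' differences were therefore those found without that library, and the block fit is no separate check of them. Same-numbered libraries deviated together in MII with DMSO against GV (correlations over genes were 0.487 and 0.282). They deviated oppositely between the MII groups (-0.601 and -0.348) and between MII with BYBX and GV (-0.330). In groups of 2 libraries the deviations mirror each other, so -0.330 is a single value. The labels give only a replicate number, and these correlations cannot show whether the libraries were paired. Of 381 comparisons of single members under the alternatives other than scaling, 350 kept direction and side of the threshold, 21 lost a call, 2 gained one and 8 changed sign. In many of these the difference could not move. Other filters, no intensity trend, fits of only the 2 groups compared and leaving out a library of the group not compared can change only the p-value. The tally is therefore no measure of how stable the differences are.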
